A study of Mus musculus with 8 samples.

Results

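The effect of *Smad4* on each gene was compared between pancreatic ductal adenocarcinoma (PDAC) cells given TGFβ1 and cells whose TGFβ receptor was blocked. For every gene, the log2 difference between Smad4-on and Smad4-off cells under the inhibitor SB505124 was subtracted from the same difference under TGFβ1, and the result is called the interaction. A positive value means that *Smad4* shifted the gene more in the upward direction under TGFβ1, and a negative value means the opposite. Of 53465 genes in the count table, 14301 passed the filter on low counts and were tested, and all 8 libraries entered the calculation.

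TGFβ binds receptor kinases at the cell surface that phosphorylate SMAD2 and SMAD3, which then join SMAD4 and enter the nucleus to activate or repress genes. BMPs, related ligands, use other receptors and other receptor-activated SMADs but share SMAD4 as the partner. In the normal pancreas and in PDAC, TGFβ signaling through SMAD4 is known for restraining proliferation, for inducing matrix and adhesion genes and for weakening epithelial features, and *SMAD4* is often lost in human PDAC.

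Both cell lines, KCS-B73 and KCS-B87 (B73 and B87 from here on), came from primary tumors that arose in the pancreas of KC-shSmad4 mice. Both lines carried Cre expressed from *Ptf1a*, which is active in the pancreas, and a single-copy, GFP-linked short hairpin RNA (shRNA) against *Smad4* that is expressed only with doxycycline (Dox). The 4 groups were Smad4 off (kept on Dox) with SB505124, Smad4 on (5 days without Dox) with SB505124, Smad4 off with TGFβ1 and Smad4 on with TGFβ1, each with 1 library from each line. TGFβ1 was given at 100 pM and SB505124, which inhibits the type I receptor kinases for TGFβ and activin, at 2.5 µM, both for 24 h, and no library came from cells given neither. Dox, the shRNA with its GFP and the *Smad4* state changed together, and no control shRNA was among these libraries, so that their effects cannot be told apart.

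Total counts ran from 18389235 to 23440550 per library, at which 3 counts correspond to 0.125 to 0.162 CPM, the unit of level used throughout (a share of a library's counts, scaled to a common total). The keratins *Krt8* and *Krt18*, markers of ductal epithelium, had at least 4744 counts in every library, whereas *Epcam* had between 3 and 39. All 5 endocrine markers and 6 of 9 acinar markers had no count in any library, and *Cd3e* and *Adgre1* of 8 leukocyte markers had none, while 7 of the 8 never exceeded 10 counts. Of 8 fibroblast markers, 3 never exceeded 10 counts, and the summed level ran from 5.87 to 623 CPM, chiefly through *Col1a1*. The 5 endothelial markers summed to between 0.707 and 26.2 CPM, chiefly through *Kdr*, with no count of *Emcn* in any library. No tested cell type marker was called in the interaction by the rule given below, which 0.189% of all tested genes met. At an unadjusted edgeR p under 0.05 with the same sign in both lines, 2 of 9 ductal and 1 of 2 tested endothelial markers had a lower interaction. None had a higher one. Over all tested genes, 6.15% were lower and 4.22% higher at that mark.

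*Smad4* itself followed its label in every library and to about the same extent under either treatment. In B73 it was at 33.7 CPM in Smad4-off and 97.4 CPM in Smad4-on cells under SB505124, and at 34.7 and 117 CPM under TGFβ1. In B87 the same 4 libraries held 34.9, 114, 35.5 and 115 CPM. The rise of *Smad4* was 1.73 ± 0.09 under TGFβ1 and 1.62 ± 0.09 under SB505124 (log2 ± SE), with an interaction of 0.11 ± 0.13 (edgeR adjusted p = 0.838).

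The *Smad4* effect differed between TGFβ1 and SB505124 for a small set of genes. edgeR called 27 genes (adjusted p under 0.05 and over 2-fold), which is 0.189% of those tested. The interaction was higher under TGFβ1 for 8 of them (0.0559%) and lower for 19 (0.133%). The higher genes included *Vegfa*, the angiogenic growth factor, *Itga5* and *Fermt2*, which serve integrin adhesion, and *Ctgf*, a matricellular protein. Among the lower genes were *Il33*, an alarmin cytokine of the IL-1 family, *Gsta4*, *Aldh3a1*, *Aldh1a1* and *Gclc*, which detoxify aldehydes or make glutathione, and *Mgat3*, which adds the bisecting N-acetylglucosamine to N-glycans.

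The 27 calls rest on the cell line as a term of the model, which removes the constant difference between B73 and B87. Without that term edgeR called 0 genes at an adjusted p under 0.05, with 640 genes at an unadjusted p under 0.05, and the adjusted p of the 27 ran from 0.215 to 1, although each kept its sign. DESeq2 called 134 genes with the line in the model and 40 without it, and these held 27 and 17 of the 27. Every p-value rests on 2 lines with 1 library each per group. With the line as a term it measures how unequally the 2 lines changed between groups, and without that term the full difference between them. Leaving out any 1 of the 8 libraries lowered the number of calls.

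Across all tested genes the interaction had a median of −0.01 and an SD of 0.665, and the lines shared its direction more often for large values than for small ones. The interaction had the same sign in B73 and B87 for 65.3% of the 14301 genes, with Pearson's r = 0.422 and Spearman's rho = 0.394 across genes, which are not independent replicates. In each line the interaction uses its own 4 libraries. Of the 100 genes with the largest positive interaction in B73 (mean log2 CPM of at least 1), 81% were positive in B87, where 47.6% of all genes at that level were positive, and their median was 1.71 in B73 and 0.84 in B87. For the 100 largest negative values in B73, 98% were negative in B87 against 52.4% of all, with medians of −2.05 and −1.63.

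Chosen in B87 and read in B73, the 100 highest genes were positive in 90% and the 100 lowest negative in 93%, with medians in B73 of 1.03 and −1.63. An interaction below −1 in both lines was found for 376 genes (2.63%), and one above 1 in both for 127 (0.888%). B73 and B87 shared the sign of every called gene, but the value of *Ddc* in B87 rests on 2 counts in all and is no measurement.

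**Figure D1:**
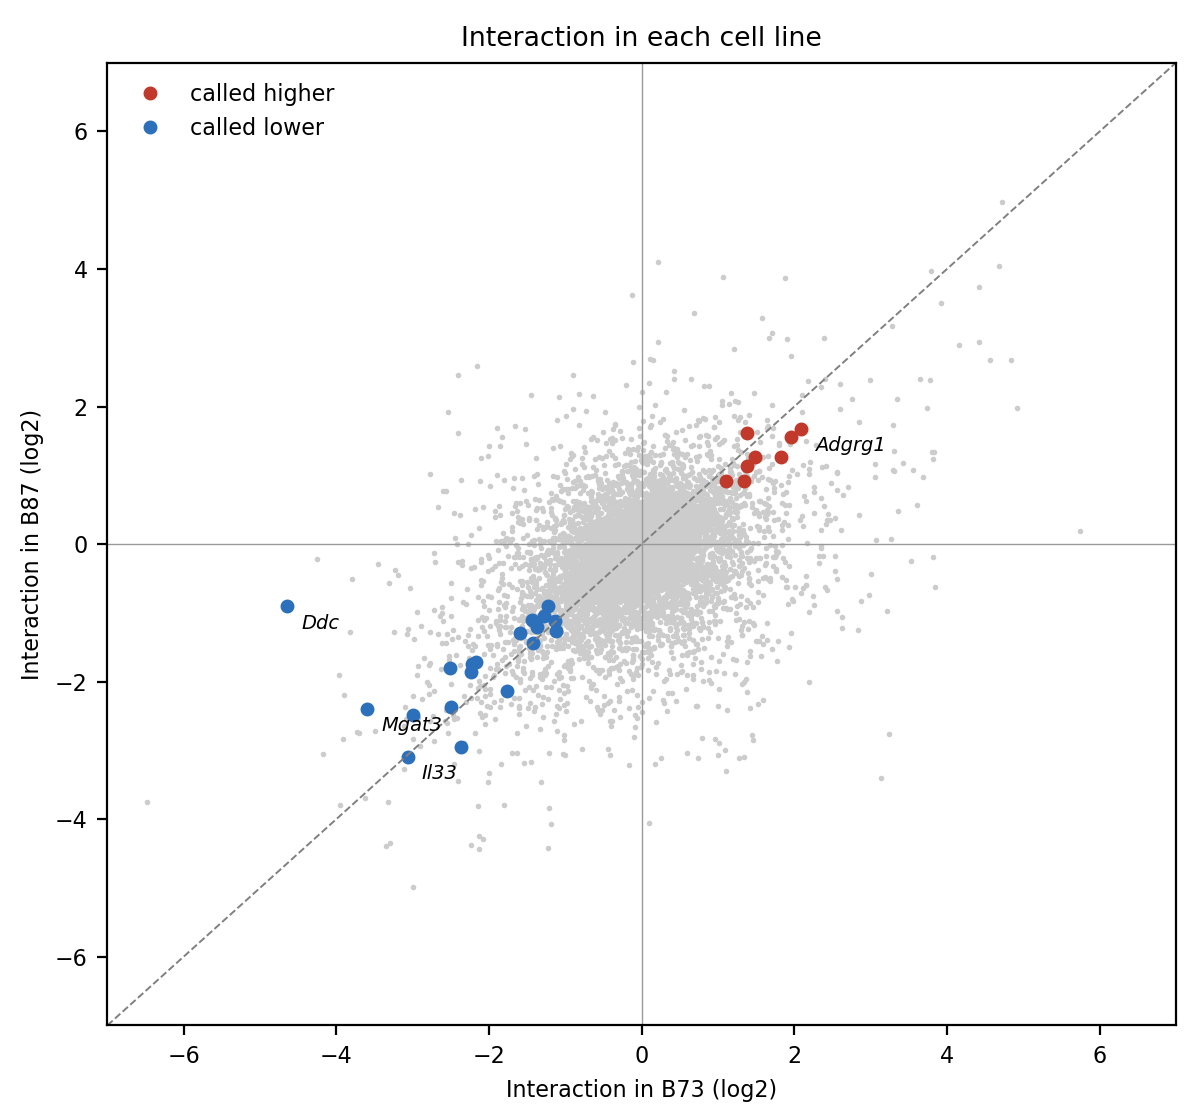
Each dot is a tested gene, with its interaction (log2) in B73 on the x axis and in B87 on the y axis. Red dots are the 8 genes called higher and blue dots the 19 called lower, the dashed line marks equality, and all coloured dots lie in the quadrants where both lines have the same sign, with *Ddc* far to the left where B87 had at most 2 counts per library.

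Genes that detoxify reactive aldehydes and supply glutathione made up a group among the lower genes. Restoring *Smad4* raised some of them while the receptor was blocked and lowered them while TGFβ1 was present. *Gsta4* (chr9:78182774-78209349 on GRCm38), a glutathione transferase that acts on products of lipid peroxidation, was at 235 CPM in Smad4-off and 594 CPM in Smad4-on B73 cells under SB505124, and at 15.3 and 4.75 CPM under TGFβ1. In B87 it was at 102, 229, 6.63 and 2.60 CPM in that order. In both lines *Gsta4* was highest in Smad4-on cells under SB505124 and lowest in Smad4-on cells under TGFβ1. The *Smad4* effect was 1.25 ± 0.10 under SB505124 and −1.55 ± 0.14 under TGFβ1, so that the interaction was −2.80 ± 0.17 (adjusted p = 0.00529).

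*Aldh3a1* (chr11:61207537-61218421), an aldehyde dehydrogenase, had the same order of groups. Its level in B73 was 149 and 250.3 CPM (Smad4 off, then on) under SB505124 against 10.2 and 3.27 CPM under TGFβ1, and B87 had 172, 319, 12.6 and 2.96 CPM. *Aldh3a1* rose by 0.82 ± 0.10 under SB505124, whereas under TGFβ1 the change was −1.87 ± 0.14, and the interaction was −2.69 ± 0.17 (adjusted p = 0.00529). *Selenop* (chr15:3268547-3280508), the secreted selenium carrier, was at 187, 269, 51.0 and 27.2 CPM in B73 and at 120.1, 165, 31.9 and 16.0 CPM in B87, in the order Smad4 off and on under SB505124 and then Smad4 off and on under TGFβ1. The groups of *Selenop* did not overlap between treatments, and its *Smad4* effect turned from 0.49 ± 0.07 to −0.95 ± 0.08, an interaction of −1.44 ± 0.11 (adjusted p = 0.0124). In these 3 genes the effect passed an adjusted p of 0.05 in both treatments, in opposite directions.

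*Gclc* (chr9:77754535-77794485) encodes the catalytic subunit of glutamate-cysteine ligase, the limiting enzyme of glutathione synthesis. Its level was 386, 537, 127 and 68.6 CPM in B73 and 245, 348, 88.4 and 54.2 CPM in B87, in the same order of groups. The fall of *Gclc* under TGFβ1 (−0.79 ± 0.10) passed the test, the effect of 0.49 ± 0.10 under SB505124 did not (adjusted p = 0.0707), and the interaction was −1.29 ± 0.14 (adjusted p = 0.038). *Aldh1a1* (chr19:20492715-20643462), which makes retinoic acid from retinaldehyde, stood at 171 and 166 CPM in B73 under SB505124 and at 69.5 and 30.9 CPM under TGFβ1, with 110.0, 110.0, 50.0 and 23.0 CPM in B87. Under SB505124 the Smad4-on and Smad4-off libraries of *Aldh1a1* lay side by side within each line, and the interaction was −1.13 ± 0.12 (adjusted p = 0.038).

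*Nfe2l2*, named here after its values were seen, encodes NRF2, the transcription factor that activates many of these genes. It was at 371, 496, 249 and 148 CPM in B73 and at 399.8, 447, 239 and 150.0 CPM in B87, highest in both lines in Smad4-on cells under SB505124 and lowest in Smad4-on cells under TGFβ1. The interaction of −0.999 ± 0.125 had an adjusted p of 0.0496 and missed the 2-fold rule. Of 23 tested genes in a list of glutathione and NRF2 targets, 4 were called lower, 12 had a lower interaction at an unadjusted p under 0.05 with the same sign in both lines, and 1 a higher one. Over all tested genes these shares were 6.15% lower and 4.22% higher, and the medians were −0.80 for the list and −0.01 for all genes. The interaction was negative in both lines for 20 of the 23, against 4896 of all 14301 tested genes. Without the line as a term 9 of the 23 were lower and 0 higher. This list holds *Gsta4*, *Aldh3a1*, *Gclc* and *Aldh1a1* and was chosen with earlier results of these data known, so it is not independent evidence.

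Large negative interactions measured in both lines outside that group included those of a cytokine, a glycosyltransferase and a tetraspanin. *Il33* (chr19:29925114-29960718) was at 50.5 and 59.1 CPM in Smad4-off and Smad4-on B73 cells under SB505124, and at 12.6 and 1.68 CPM under TGFβ1. In B87 its levels were 26.3, 34.1, 7.57 and 1.07 CPM. Both libraries of Smad4-on cells under TGFβ1 lay below all 6 others. The effect of *Smad4* was −2.87 ± 0.15 under TGFβ1 and 0.30 ± 0.11 under SB505124 (adjusted p = 0.308), and the interaction of −3.17 ± 0.19 (adjusted p = 0.00529) was −3.07 in B73 and −3.09 in B87.

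*Mgat3* (chr15:80173721-80215519) was at 185, 167, 70.8 and 5.21 CPM in B73 and at 149, 97.1, 43.9 and 5.35 CPM in B87. As for *Il33*, the Smad4-on libraries under TGFβ1 were far below the rest, and Smad4-off cells under TGFβ1 lay between them and the SB505124 cells. The interaction was −3.02 ± 0.26 (adjusted p = 0.0189). *Tspan8* (chr10:115816832-115849893), a tetraspanin of the cell surface, was at 534, 463, 277 and 42.4 CPM in B73 and at 399, 214, 197 and 20.4 CPM in B87, and its interaction was −2.43 ± 0.26 (adjusted p = 0.038). In B87, but less so in B73, Smad4-on cells also had less *Tspan8* under SB505124, an effect of −0.55 ± 0.18 that did not pass the test (adjusted p = 0.264).

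*Plat* (chr8:22757727-22782844), tissue-type plasminogen activator, differed in that TGFβ1 hardly moved it in Smad4-off cells. Its 4 levels were 80.7, 100.3, 66.9 and 17.7 CPM in B73 and 66.9, 77.9, 53.6 and 18.7 CPM in B87. The Smad4-on TGFβ1 libraries again lay below the other 6, with an interaction of −1.98 ± 0.17 (adjusted p = 0.0189). The Smad4-on TGFβ1 libraries were also the lowest in each line for *Myl12b*, a regulatory light chain of nonmuscle myosin, at 184, 192, 175 and 77.7 CPM in B73 and 197, 177, 179 and 86.6 CPM in B87 (interaction −1.06 ± 0.13, adjusted p = 0.0461). Of the 75-base stretches of the *Myl12b* transcripts, 24.7% also occur in another gene model of that name, so its counts are less certain.

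Several lower genes belong to stratified or polarized epithelium. *Scel* and *Sprr1a* encode cornified envelope proteins, *Rbm47* an RNA-binding protein of epithelial cells, and *Wnk4* a kinase that regulates ion transport. *Scel* was at 32.1, 50.3, 8.96 and 2.40 CPM in B73 and 38.7, 38.6, 9.37 and 2.60 CPM in B87, with an interaction of −2.20 ± 0.26 (adjusted p = 0.0461). For *Wnk4* the values were 51.0, 69.3, 7.16 and 1.99 CPM in B73 and 55.6, 54.5, 5.53 and 1.43 CPM in B87, and the interaction was −2.09 ± 0.25 (adjusted p = 0.0468). Both genes were lower under TGFβ1 than under SB505124 in every library, and lower still with *Smad4* on.

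*Rbm47* had 71.1, 80.8, 38.4 and 14.4 CPM in B73 and 42.4, 38.3, 22.4 and 8.21 CPM in B87 (interaction −1.45 ± 0.16, adjusted p = 0.0387). *Sprr1a* fell with *Smad4* in both treatments, in B73 from 50.1 to 21.7 CPM with SB505124 and from 57.9 to 9.19 CPM with TGFβ1, and in B87 from 56.4 to 22.4 and from 65.4 to 12.0 CPM. The fall of *Sprr1a* was larger under TGFβ1, with an interaction of −1.27 ± 0.16 (adjusted p = 0.0471). *Fam129a*, a stress-responsive protein also called Niban, and *Apcdd1*, a membrane inhibitor of Wnt signaling, had smaller interactions of −1.19 ± 0.14 and −1.17 ± 0.15 (adjusted p = 0.0415 and 0.0496). In both lines *Apcdd1* was higher with *Smad4* on under SB505124 (50.6 to 69.1 CPM in B73, 33.7 to 47.2 CPM in B87) and lower with it under TGFβ1 (40.7 to 22.8 and 24.0 to 16.3 CPM).

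For 2 lower genes the *Smad4* effect passed the test under SB505124 and not under TGFβ1. *Pik3r5* (chr11:68432121-68497849), a regulatory subunit of PI3Kγ, was at 18.0 CPM in Smad4-off and 59.8 CPM in Smad4-on B73 cells under SB505124, and at 14.6 and 14.2 CPM under TGFβ1. In B87 it was at 12.7, 43.4, 12.7 and 9.84 CPM. The Smad4-on SB505124 libraries stood above the 6 others, which lay between 9.84 and 18.0 CPM, and the interaction was −1.95 ± 0.18 (adjusted p = 0.0206). *Rab3b*, a small GTPase of regulated secretion, rose by 1.19 ± 0.16 under SB505124 (7.99 to 19.2 CPM in B73, 9.93 to 21.4 CPM in B87), and had an effect of −0.77 ± 0.19 under TGFβ1 (adjusted p = 0.0559). Its interaction was −1.96 ± 0.25 (adjusted p = 0.0496). *Ddc*, which decarboxylates aromatic amino acids to make dopamine and serotonin, was measurable only in B73, with 115, 432, 56 and 6 counts against 0, 2, 0 and 0 in B87, so that its interaction of −4.97 ± 0.56 comes from 1 line.

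**Figure D2:**
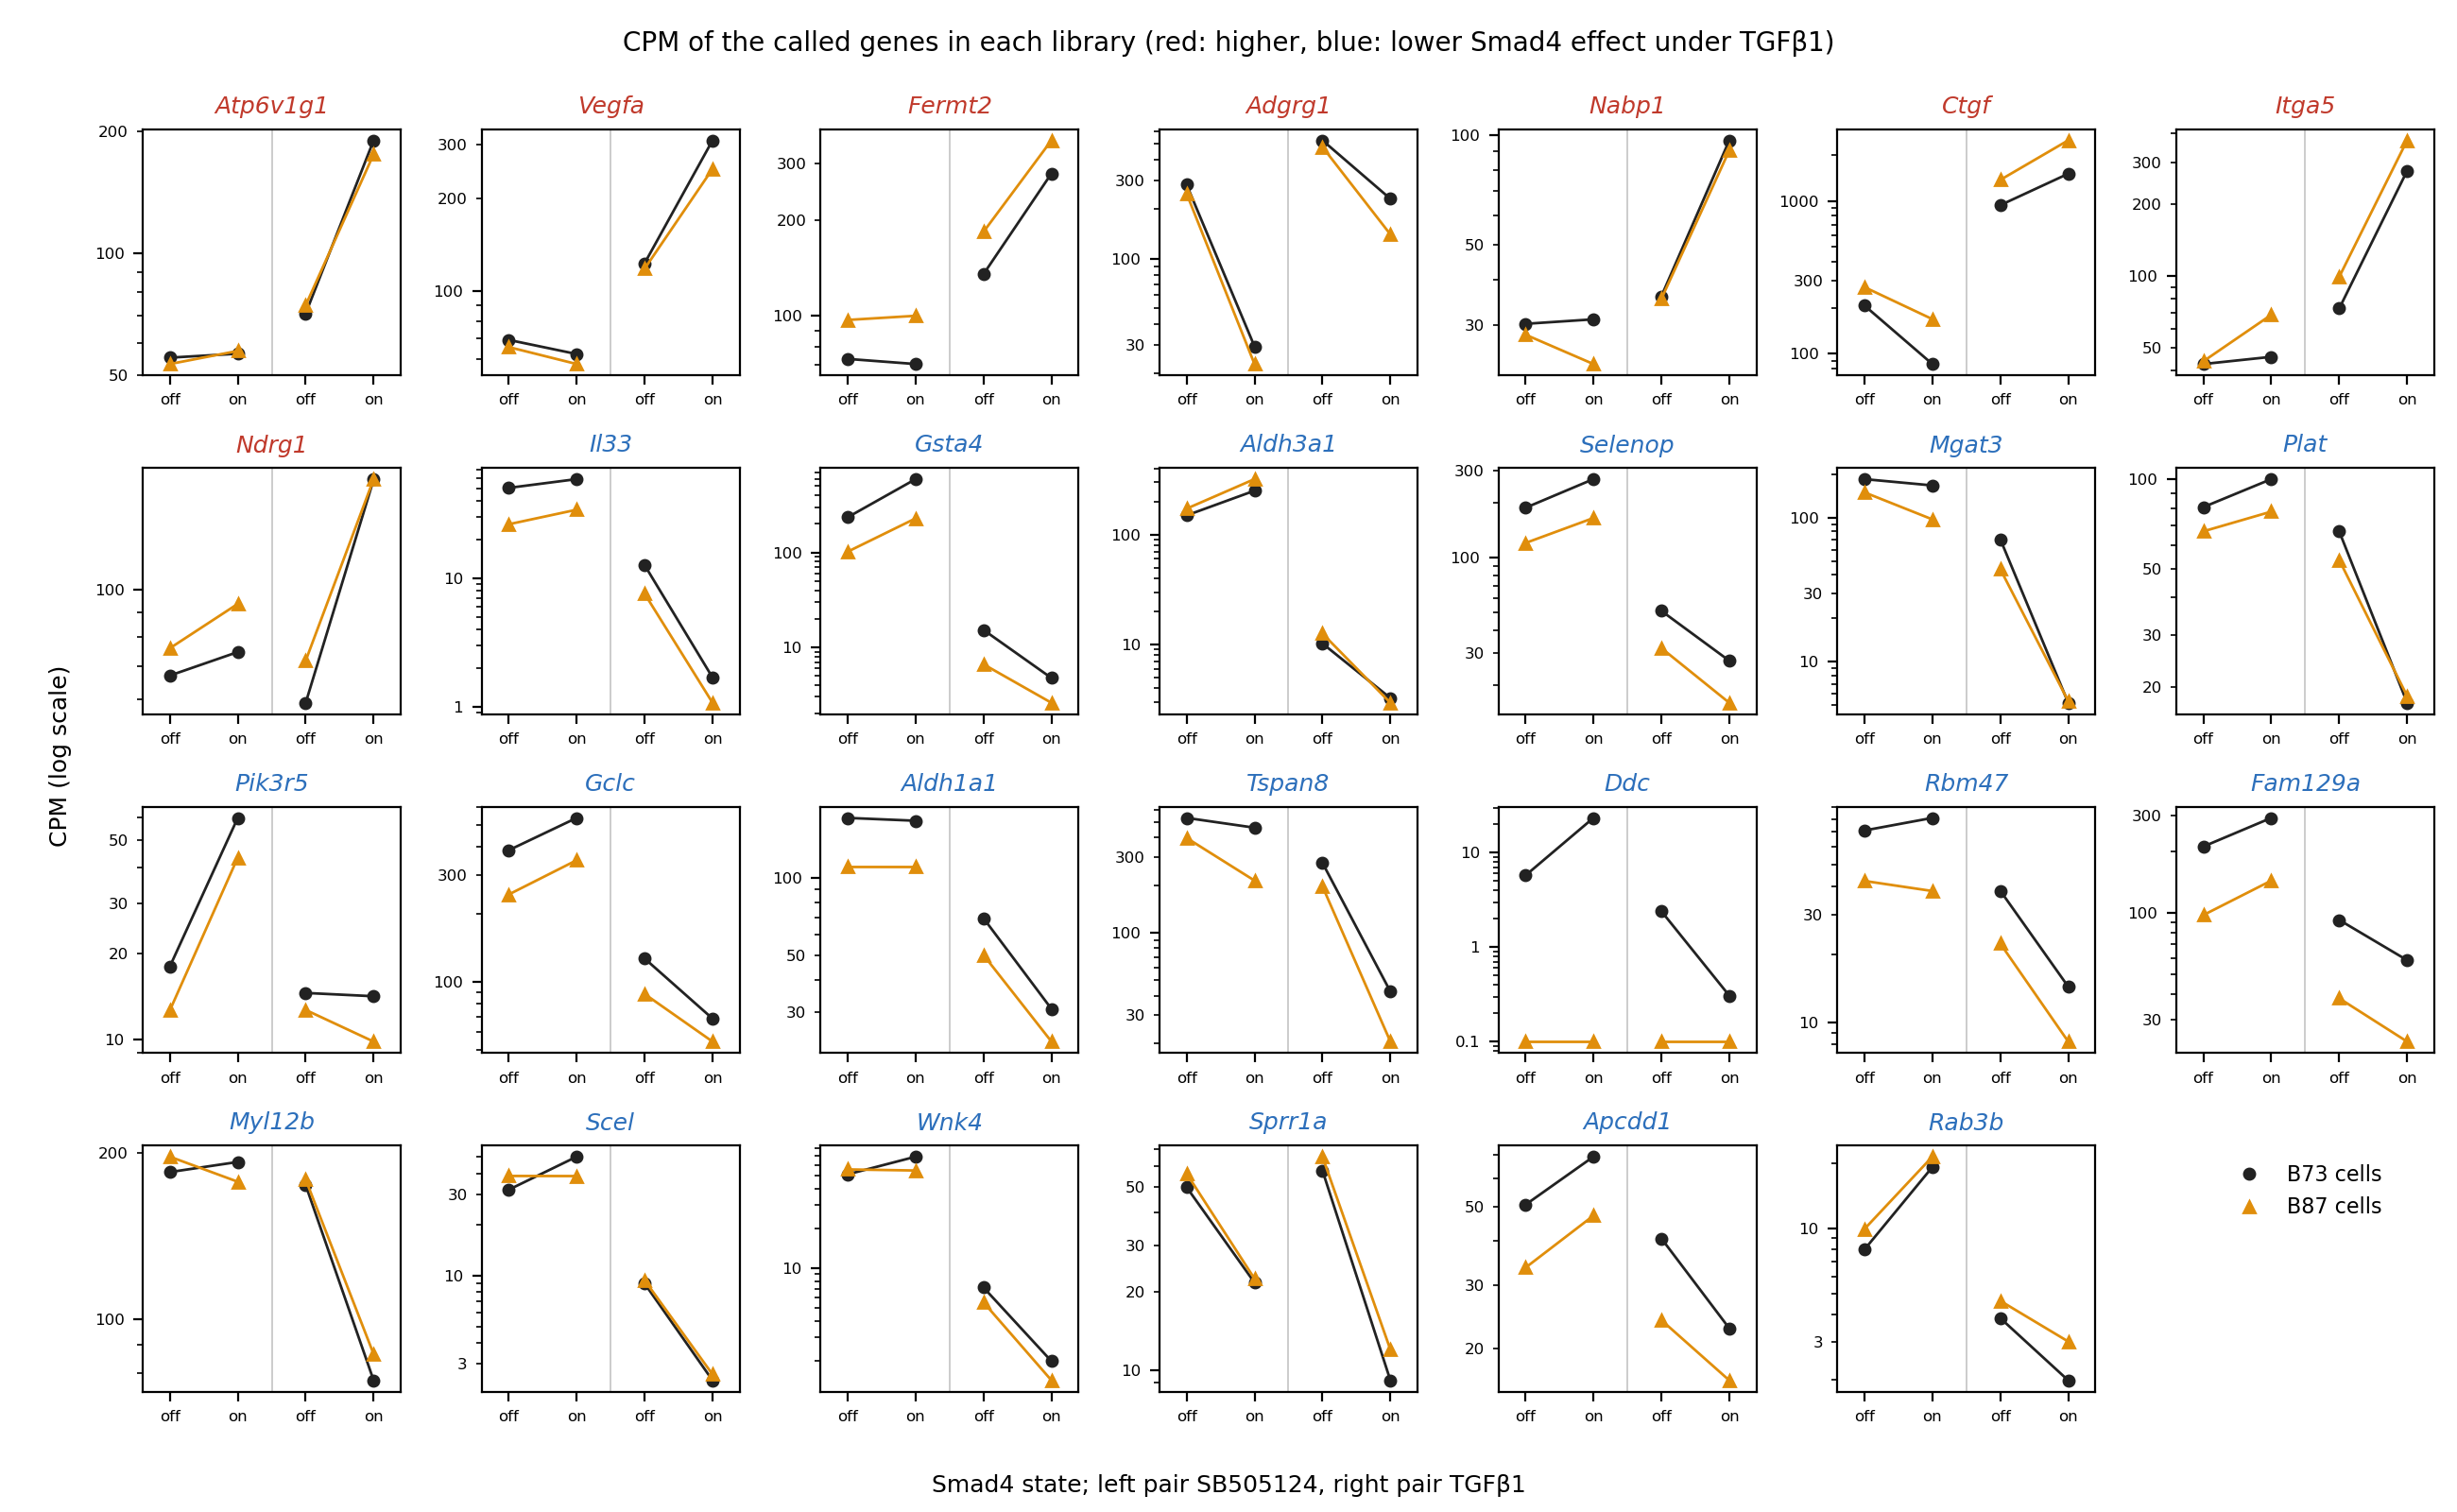
Each panel shows 1 called gene, with CPM on a log axis in Smad4-off and Smad4-on cells under SB505124 (left pair) and under TGFβ1 (right pair), and lines joining the libraries of B73 (circles) and of B87 (triangles). Panels with red names (8 genes, interaction higher) mostly have a flat left pair and a rising right pair, panels with blue names (19 genes, lower) a falling right pair, and the B87 values of *Ddc* are drawn at the bottom of its axis because its counts there were at most 2.

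Of the higher genes, 6 responded to *Smad4* under TGFβ1 and not detectably under SB505124, among them *Vegfa* and *Ndrg1*, which are linked to angiogenesis and hypoxia. *Vegfa* (chr17:46016993-46032369) was at 69.4 and 62.4 CPM in Smad4-off and Smad4-on B73 cells under SB505124, and at 123 and 310.1 CPM under TGFβ1. In B87 the levels were 65.8, 57.9, 118 and 250.4 CPM. *Vegfa* was higher in both Smad4-on TGFβ1 libraries than in any other, and the Smad4-off TGFβ1 libraries came next. The *Smad4* effect was 1.21 ± 0.09 under TGFβ1 and −0.17 ± 0.09 under SB505124 (adjusted p = 0.51), with an interaction of 1.38 ± 0.13 (adjusted p = 0.0206).

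*Ndrg1* (chr15:66929321-66969640), a hypoxia-inducible gene, was at 66.9, 74.7, 59.0 and 167 CPM in B73 and 76.0, 93.4, 71.7 and 167 CPM in B87 (interaction 1.13 ± 0.14, adjusted p = 0.0471). Unlike *Vegfa*, it was no higher under TGFβ1 than under SB505124 when *Smad4* was off. *Atp6v1g1* (chr4:63544772-63550750), a subunit of the proton pump that acidifies lysosomes, had 55.2, 56.5, 71.0 and 189.9 CPM in B73 and 53.2, 57.4, 74.4 and 175 CPM in B87, and an interaction of 1.26 ± 0.11 (adjusted p = 0.0206). For *Atp6v1g1*, 12.5% of the 75-base stretches also occur in transcripts of other genes, chiefly *Gm13453*. *Nabp1*, which binds single-stranded DNA, was at 36.0 and 96.5 CPM in Smad4-off and Smad4-on B73 cells under TGFβ1 and at 35.4 and 90.5 CPM in those of B87, while under SB505124 its 4 libraries lay between 23.5 and 31.1 CPM (interaction 1.50 ± 0.16, adjusted p = 0.038).

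*Itga5*, *Fermt2*, *Ctgf* and *Adgrg1*, the other higher genes, encode proteins of the cell surface, the matrix or integrin complexes. *Itga5* (chr15:103344286-103366763), the alpha chain of the main fibronectin receptor, was at 42.6 and 45.7 CPM in B73 under SB505124 and at 72.9 and 277 CPM under TGFβ1. B87 had 43.7, 68.6, 99.1 and 373 CPM in that order, and the interaction was 1.54 ± 0.18 (adjusted p = 0.0461). *Fermt2*, which encodes kindlin-2, an activator of integrins, was at 73.2, 70.5, 135 and 279.9 CPM in B73 and 97.0, 100.0, 183 and 356 CPM in B87, an interaction of 1.01 ± 0.11 (adjusted p = 0.038). Both genes were highest in Smad4-on cells under TGFβ1 in each line and already higher under TGFβ1 than under SB505124 in Smad4-off cells.

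*Ctgf* (chr10:24595442-24598683) moved in opposite directions. Under SB505124 it fell with *Smad4*, in B73 from 207 to 85.5 CPM and in B87 from 273 to 168 CPM, whereas under TGFβ1 it rose, from 940.2 to 1511 CPM and from 1377 to 2501 CPM. The effects were −0.98 ± 0.14 and 0.77 ± 0.14, and the interaction 1.75 ± 0.20 (adjusted p = 0.0387). All TGFβ1 libraries held more *Ctgf* than any SB505124 library, whether *Smad4* was on or off. Of its 75-base stretches, 14.6% also occur in transcripts of other genes, chiefly *Gm15270*.

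*Adgrg1* (chr8:94974751-95014217), an adhesion G protein-coupled receptor also called GPR56, was called higher although *Smad4* lowered it in both treatments. In B73 it went from 283 to 29.3 CPM with SB505124 and from 526 to 232 CPM with TGFβ1, and from 249 to 22.9 and from 479 to 141 CPM in B87. The fall was −3.36 ± 0.16 under SB505124 and −1.47 ± 0.15 under TGFβ1, so the positive interaction of 1.90 ± 0.21 (adjusted p = 0.038) is a smaller fall.

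The 27 genes thus formed a few patterns of simple effects, each read at an adjusted p of 0.05. For 6 higher genes (*Atp6v1g1*, *Vegfa*, *Fermt2*, *Nabp1*, *Itga5* and *Ndrg1*) the *Smad4* effect passed under TGFβ1 alone. For 12 lower genes (*Il33*, *Mgat3*, *Plat*, *Gclc*, *Aldh1a1*, *Tspan8*, *Rbm47*, *Fam129a*, *Myl12b*, *Scel*, *Wnk4* and *Apcdd1*) a fall passed under TGFβ1 alone. Effects in opposite directions passed in both treatments for *Ctgf* and for 4 lower genes, *Gsta4*, *Aldh3a1*, *Selenop* and *Ddc*. Over all tested genes, a *Smad4* effect passed for 6.8% under TGFβ1 and for 1.59% under SB505124. These simple effects use the same libraries as the interaction and are a description of it.

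**Figure D3:**
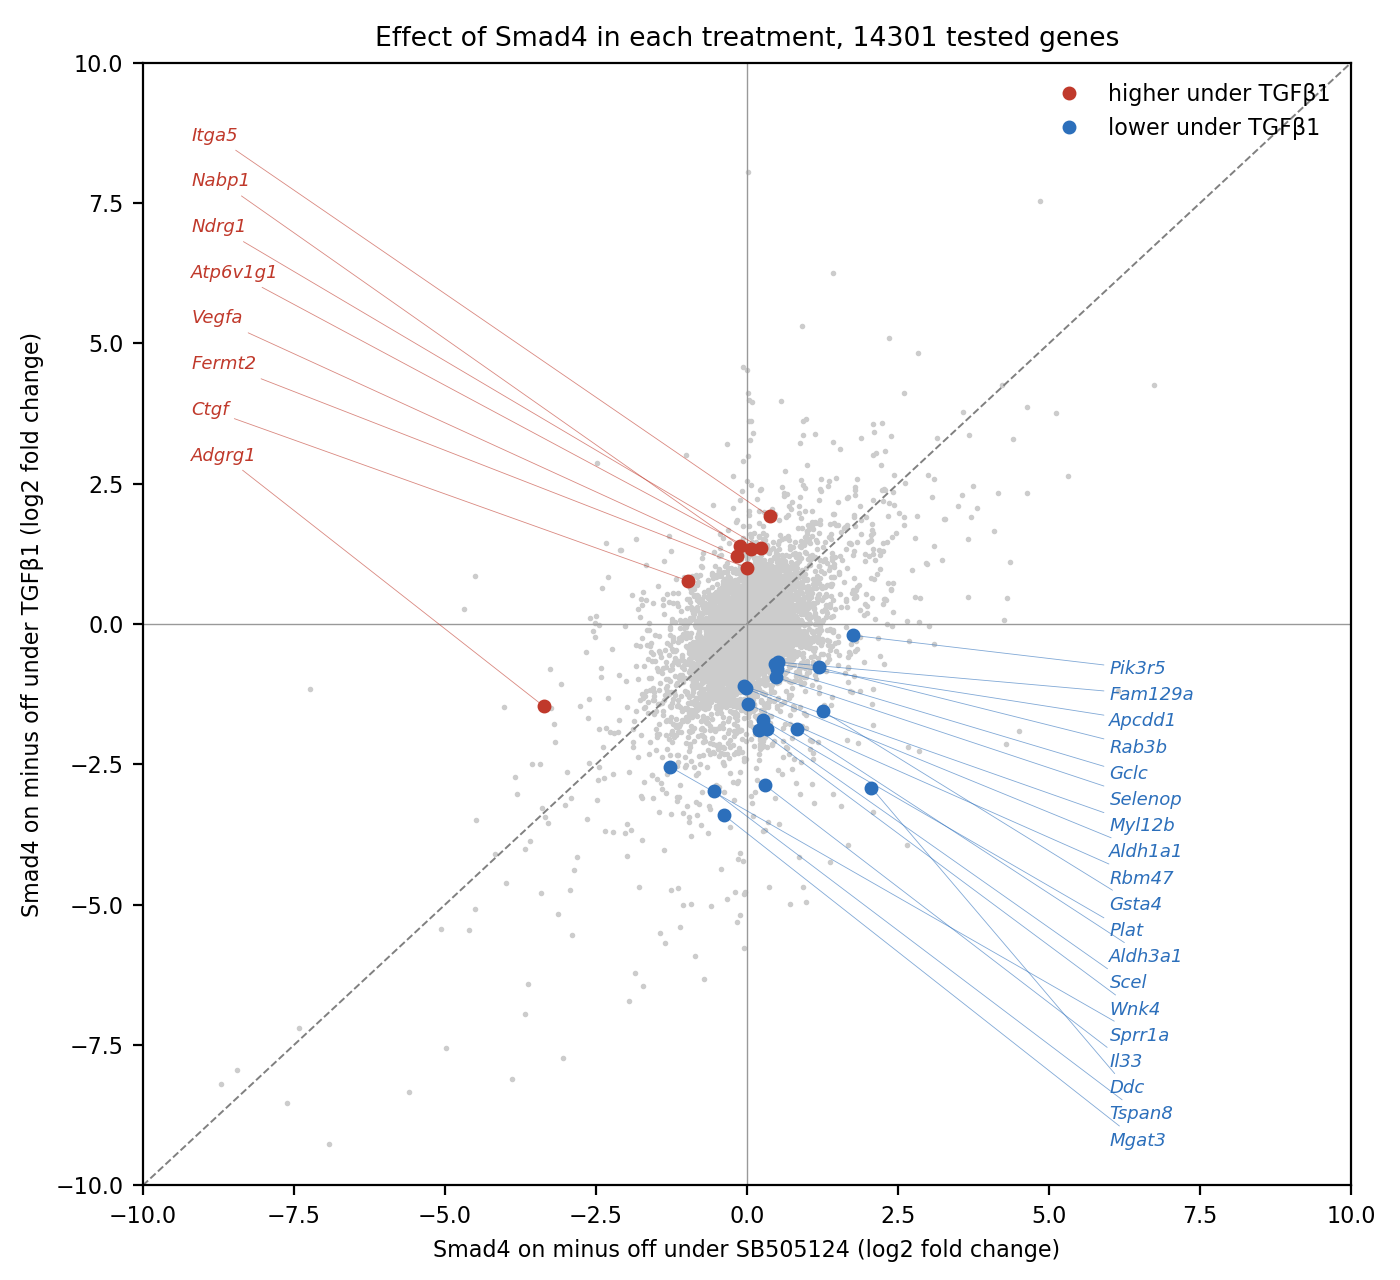
Each dot is a tested gene, with the log2 *Smad4* effect (on minus off) under SB505124 on the x axis and under TGFβ1 on the y axis, and the dashed line marks equal effects. The 8 higher genes (red) lie above the line and the 19 lower genes (blue) below it, most of them near 0 on the x axis, with *Adgrg1* at the far left and *Pik3r5* and *Ddc* toward the right.

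The promoters of the called genes were searched for short SMAD and partner motifs in RefSeq windows of 250 bases before and 50 after each gene start (GRCm38.p6). Of the 27 genes, 17 had such windows, 26 windows in all. CAGAC, the SMAD-binding element, was found on either strand in 5 of 7 windows of higher genes and in 7 of 19 of lower genes, and in 49.6% of the 32851 windows of all genes. The SMAD palindrome GTCTAGAC occurred in none of them (0.213% of all windows) and the GC-rich SMAD motif GGCGCC in 1 window, that of *Myl12b* (11.9% of all). TGANTCA, the AP-1 motif, was in 1 window of higher and 4 of lower genes (7.81% of all), and GGAATG, the TEAD motif, in 0 and 4 (14.7% of all). A match of so few letters is a description and not a site of binding.

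The 250 bases before the start are printed for 3 genes whose *Smad4* effect depended on TGFβ1 in different ways, a rise (*Vegfa*, chr17:46032378-46032627, minus strand), a smaller fall (*Adgrg1*, chr8:94976859-94977108, plus strand) and a fall (*Il33*, chr19:29945540-29945789, plus strand, the second of its 2 starts, the window of the first holding no CAGAC). Capitals mark CAGAC or its reverse complement, which occurs 2 times in the printed windows of *Vegfa* and *Adgrg1* and 1 time in that of *Il33*. *Vegfa* and *Adgrg1* also have 2 windows each, of which the first is printed, and the second of each holds 1 match.
Vegfa: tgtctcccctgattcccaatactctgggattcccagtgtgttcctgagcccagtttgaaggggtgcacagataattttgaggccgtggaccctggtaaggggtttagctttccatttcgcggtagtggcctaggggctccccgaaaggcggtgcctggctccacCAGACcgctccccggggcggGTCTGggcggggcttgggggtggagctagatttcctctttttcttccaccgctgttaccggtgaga
Adgrg1: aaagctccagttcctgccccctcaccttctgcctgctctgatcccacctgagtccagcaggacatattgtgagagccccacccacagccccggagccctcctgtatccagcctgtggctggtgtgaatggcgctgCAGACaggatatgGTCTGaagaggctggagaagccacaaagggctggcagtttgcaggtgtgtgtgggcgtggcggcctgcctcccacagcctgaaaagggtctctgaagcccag
Il33: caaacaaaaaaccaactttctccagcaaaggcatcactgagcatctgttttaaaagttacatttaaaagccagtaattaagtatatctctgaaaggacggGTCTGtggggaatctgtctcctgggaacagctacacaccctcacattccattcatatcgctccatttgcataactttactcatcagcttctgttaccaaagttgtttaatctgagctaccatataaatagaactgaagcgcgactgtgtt

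Beyond single calls, 30 lists of genes by function were read, holding 679 tested genes. A member is counted as higher or lower when its unadjusted interaction p was under 0.05 with the same sign in both lines, a weaker mark than the call, which 4.22% of all tested genes met on the higher side and 6.15% on the lower side. Over all tested genes these were 603 and 880 genes, and 301 and 338 without the line as a term. At any p, the interaction was positive in both lines for 4438 of the 14301 tested genes and negative in both for 4896. The members named below were not called unless stated, and their values are given as measured.

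Feedback regulators of the TGFβ pathway leaned to the higher side. Of 10 tested, 5 were higher and 0 lower, with a median of 0.35, and without the line as a term 4 were higher. *Skil*, a SMAD corepressor, was at 48.6, 44.7, 161 and 249 CPM in B73 and 57.5, 46.4, 191 and 271 CPM in B87 (interaction 0.78 ± 0.12, adjusted p = 0.103). *Ldlrad4*, which hinders SMAD activation, and *Smad7*, the inhibitory SMAD, had interactions of 0.89 ± 0.21 and 0.55 ± 0.16 (adjusted p = 0.205 and 0.285). *Skil* was higher in all TGFβ1 libraries than in any SB505124 library, and highest with *Smad4* on. Ligands and receptors of the TGFβ and activin family had no common direction: of 15, 2 were higher and 0 lower (1 and 0 without the line as a term), 4 were positive and 7 negative in both lines, and the median was −0.13. Among them was *Inhba*, the activin A subunit, at 97.0 and 524 CPM with *Smad4* off and on under TGFβ1 in B73 and 388 and 1259 CPM in B87 (interaction 1.63 ± 0.26, adjusted p = 0.106).

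The list of BMP targets and antagonists, which also holds BMP ligands, leaned the other way. Of 16 tested BMP targets and antagonists, 0 were higher and 6 lower, with a median of −0.84, and without the line as a term 2 were lower. *Id3*, a helix-loop-helix inhibitor induced by BMP, was at 61.2, 143, 22.4 and 30.1 CPM in B73 and 90.1, 263, 32.3 and 48.4 CPM in B87. Restoring *Smad4* raised *Id3* by 1.39 ± 0.10 under SB505124 and by 0.50 ± 0.11 under TGFβ1, an interaction of −0.88 ± 0.15 that did not pass (adjusted p = 0.122). *Smad6*, the inhibitory SMAD of the BMP branch, rose with *Smad4* under SB505124, in B73 from 13.7 to 29.8 CPM and in B87 from 17.6 to 41.0 CPM, and was at 7.97 and 5.87 CPM and at 8.92 and 8.46 CPM under TGFβ1 (interaction −1.43 ± 0.20, adjusted p = 0.0743). The ligand *Bmp4* had an interaction of −1.50 ± 0.31 (adjusted p = 0.177).

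Matrix and adhesion lists held more higher than lower members where contractile and fibrogenic genes were concerned and were mixed elsewhere. Of 18 muscle actins and contractile genes, 6 were higher and 0 lower (median 0.40, and 3 higher without the line as a term). *Flnc*, an actin crosslinker, was at 194, 275, 198 and 397 CPM in B73 and 395, 607, 403 and 880.0 CPM in B87, with an interaction of 0.50 ± 0.11 (adjusted p = 0.194). The 6 tested fibrogenic SMAD4 targets, a program the study names for *Smad4* restoration in tumors and so not independent evidence of direction, had a median of 1.08 with 2 higher members with or without the line as a term, *Itga5* and the CCN protein *Wisp1* (0.61 ± 0.12, adjusted p = 0.163). In that list *Il11*, a cytokine of fibrosis, was at 104 CPM in B73 and 41.0 CPM in B87 with *Smad4* under TGFβ1, and at most 8.07 CPM in the other 6 libraries. The SB505124 libraries of *Il11* lay between 0.351 and 0.790 CPM, and its interaction of 2.45 ± 1.08 did not pass (adjusted p = 0.497). The collagen *Col6a1* went against the median of the list, at −1.09 ± 0.70 (adjusted p = 0.657) and negative in both lines, and is named after its values were seen.

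Among 17 matricellular and YAP/TAZ-TEAD targets, 6 were higher and 1 lower, and the no-line counts were 3 and 1. *F3*, tissue factor, was at 477 and 237 CPM in the Smad4-on TGFβ1 libraries of B73 and B87 and at no more than 86.5 CPM elsewhere (interaction 1.67 ± 0.31, adjusted p = 0.126). *Spp1*, osteopontin, went the other way, falling with *Smad4* under TGFβ1 (2749.8 to 235 CPM in B73, 1536 to 267 CPM in B87), with an interaction of −1.66 ± 0.40 (adjusted p = 0.22). Collagens and their modifying enzymes had 6 higher and 3 lower of 32, and 0 of each without the line as a term, with *Col27a1* (2.33 ± 0.41) and the crosslinking enzyme *Loxl2* (1.34 ± 0.23) on the higher side. Laminins and proteoglycan cores (3 higher and 4 lower of 22, 0 of each without the line as a term) and integrins other than *Itga5* (3 and 4 of 15, then 1 and 2) had no common direction.

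Mucins and gastric-type genes leaned to the lower side. Of 28 tested mucins and gastric-type genes, 8 were lower and 1 higher, with a median of −0.69, and 6 were lower and 0 higher without the line as a term. *Hnf4a*, a transcription factor of gut and pancreatic epithelium, was at 131, 292, 68.5 and 41.5 CPM in B73 and 139, 152, 72.0 and 22.3 CPM in B87 (interaction −1.85 ± 0.40, adjusted p = 0.182). The lectin *Lgals4* and the gastric adhesion protein *Vsig1* had interactions of −1.92 ± 0.48 and −2.19 ± 0.61 (adjusted p = 0.232 and 0.268). In both lines all 3 genes were lowest in Smad4-on cells under TGFβ1.

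Of 32 epithelial markers and junction genes, 5 were lower and 1 higher (median −0.40), but 1 of each without the line as a term. *Crb3*, a polarity protein, had the largest of these interactions at −2.48 ± 0.44 (adjusted p = 0.123), from levels between 0.510 and 8.59 CPM. The desmosomal protein *Pkp2* was the higher member, at 0.81 ± 0.16 (adjusted p = 0.162). Among 15 EMT regulators and mesenchymal markers, 0 were higher and 1 lower (0 of each without the line as a term), with a median of 0.00. Glycosyltransferases had 2 higher and 7 lower of 37, including the called *Mgat3* and the sialyltransferase *St3gal6* (−0.80 ± 0.16, adjusted p = 0.156), and 1 and 4 without the line as a term.

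**Figure D4:**
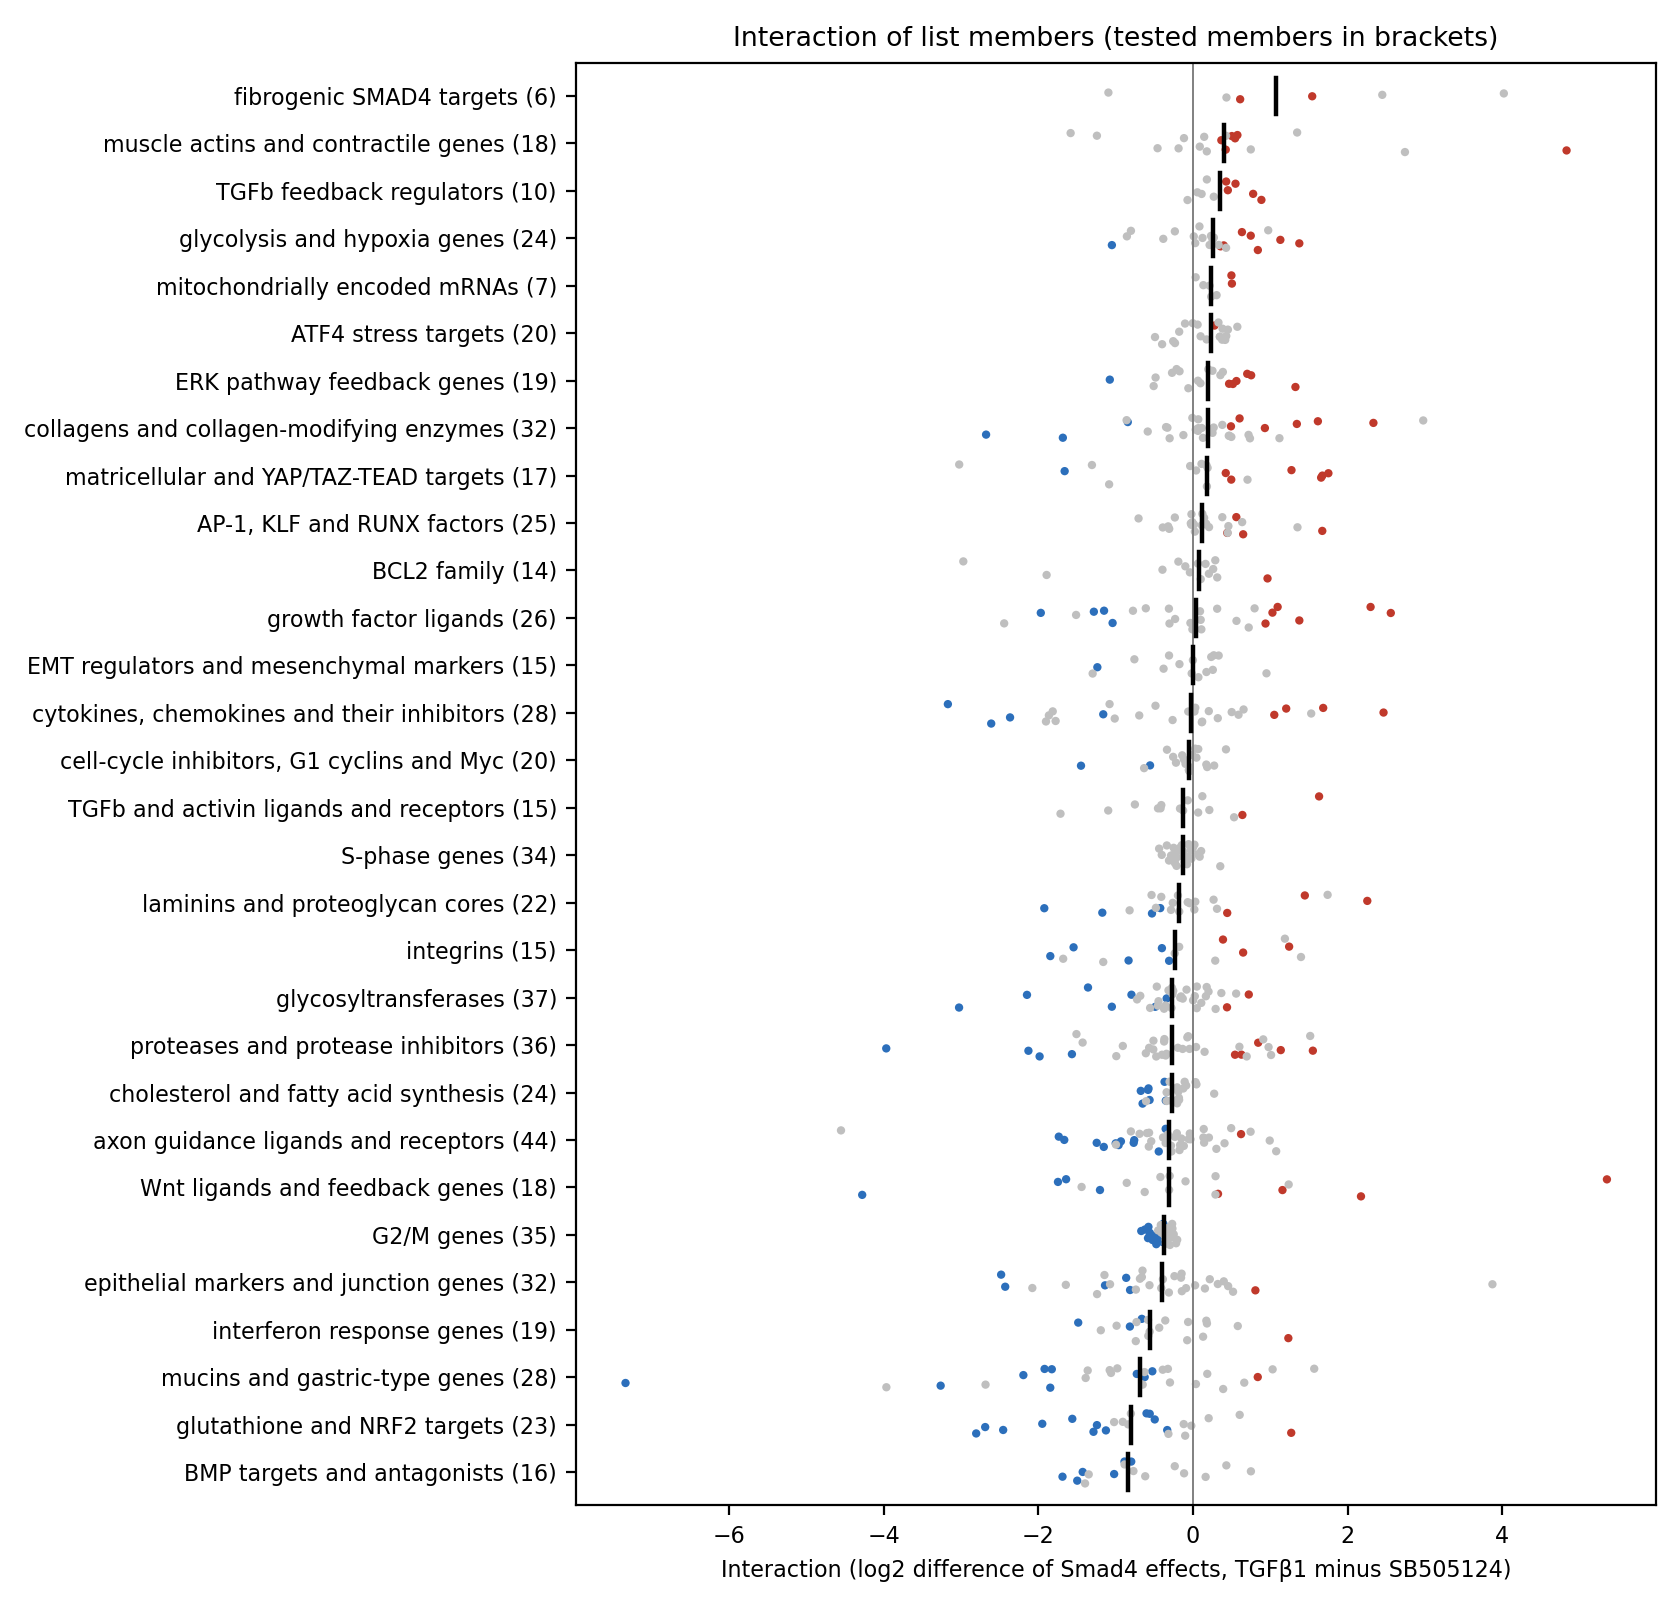
Each row is a function list with its number of tested members in brackets, each dot a member placed by its interaction (log2, x axis), red or blue where its unadjusted p was under 0.05 and grey otherwise, and the black bar marks the median. Medians range from −0.84 for the list of BMP targets and antagonists at the bottom to 1.08 for 6 fibrogenic SMAD4 targets at the top. Glutathione and NRF2 targets also lie near the bottom, at −0.80, and the G2/M genes lie together just left of 0.

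G2/M genes had small interactions of 1 sign, and none was called. All 35 tested G2/M genes had a negative interaction in both lines, against 4896 of all 14301 tested genes. The median of the G2/M genes was −0.37, and 15 of them were lower and 0 higher (5 and 0 without the line as a term). Of 34 S-phase genes, 0 were lower or higher at this mark with or without the line as a term, 18 were negative in both lines and the median was −0.13. *Ccnb2*, a mitotic cyclin, was at 138, 121, 113 and 67.4 CPM in B73 and 138, 122, 94.0 and 56.3 CPM in B87, lowest in each line with *Smad4* on under TGFβ1 (interaction −0.56 ± 0.14, adjusted p = 0.242). *Cdc25c*, the phosphatase that opens mitosis, had −0.67 ± 0.14 (adjusted p = 0.182). Members of such a list vary together across libraries, so their number does not add independent measurements.

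Metabolic lists differed in direction. Of 24 cholesterol and fatty acid synthesis genes, 7 were lower and 0 higher (median −0.27), but 0 were lower without the line as a term. *Lss*, lanosterol synthase, was at 157 and 97.9 CPM with *Smad4* off and on under TGFβ1 in B73, and at 87.5 and 49.0 CPM in B87 (interaction −0.58 ± 0.13, adjusted p = 0.182). Of 24 glycolysis and hypoxia genes, 7 were higher and 1 lower (median 0.26, and 3 and 0 without the line as a term). Besides the called *Ndrg1*, *Hk2*, a hexokinase, was at 104, 94.9, 179 and 304 CPM in B73 and 86.1, 86.0, 176 and 303 CPM in B87 (interaction 0.84 ± 0.13, adjusted p = 0.103), and the glucose transporter *Slc2a1* had 0.63 ± 0.14 (adjusted p = 0.192). *Egln3*, a prolyl hydroxylase of the hypoxia pathway, was the lower member at −1.05 ± 0.21 (adjusted p = 0.152). ATF4 stress targets had 1 higher and 0 lower of 20, and mitochondrially encoded mRNAs 2 higher and 0 lower of 7, and without the line as a term neither list had a member of either kind.

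Signaling genes of the ERK and AP-1 type leaned higher. Of 19 ERK pathway feedback genes, 6 were higher and 1 lower (median 0.20), against 3 and 0 without the line as a term. *Dusp5*, an ERK phosphatase, was at 42.0, 52.7, 87.8 and 264 CPM in B73 and 63.8, 53.2, 123 and 266 CPM in B87, highest in each line with *Smad4* on under TGFβ1 (interaction 1.33 ± 0.23, adjusted p = 0.122). Of 25 AP-1, KLF and RUNX factors, 4 were higher and 0 lower (2 without the line as a term), namely *Fosb* (1.67 ± 0.44), *Runx1* (0.65 ± 0.14), *Jun* (0.56 ± 0.16) and *Klf6* (0.44 ± 0.13), with adjusted p between 0.182 and 0.303.

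Secreted signals were mixed. Growth factor ligands had 6 higher and 4 lower of 26 (5 and 2 without the line as a term), with *Pdgfa*, a platelet-derived growth factor chain (0.94 ± 0.16, adjusted p = 0.122), and the called *Vegfa* on one side and *Kitl*, stem cell factor (−1.04 ± 0.14, adjusted p = 0.0653), on the other. Cytokines, chemokines and their inhibitors had 4 higher and 4 lower of 28 (3 and 1 without the line as a term). Among them, *Ptgs2*, the inducible cyclooxygenase, had an interaction of 1.21 ± 0.23 (adjusted p = 0.142), whereas its constitutive relative *Ptgs1* had −1.16 ± 0.25 (adjusted p = 0.182) and *Il1rn*, the interleukin-1 receptor antagonist, −2.61 ± 0.47 (adjusted p = 0.125). *Ptgs2* was highest in each line with *Smad4* on under TGFβ1 (773 and 1244 CPM), and *Ptgs1* with *Smad4* on under SB505124 (372 and 191 CPM).

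Of the remaining lists, that of axon guidance genes leaned to the lower side, while the others held few marked members or members of both signs. Axon guidance genes had 11 lower and 1 higher of 44 (median −0.30), against 5 and 0 without the line as a term, among them *Plxna2*, a semaphorin receptor (−0.999 ± 0.160, adjusted p = 0.111), and *Nrp1*, its coreceptor (−1.24 ± 0.27, adjusted p = 0.182). Proteases and protease inhibitors had 5 higher and 4 lower of 36, but 0 and 1 without the line as a term, with *Mmp3*, a matrix metalloproteinase (−3.97 ± 0.62, adjusted p = 0.104), and the called *Plat* on the lower side. The *Mmp3* value rests chiefly on B87 (−4.41), since B73 (−1.23) had only 8 and 1 counts under TGFβ1. Wnt ligands and feedback genes had 4 of each of 18 (2 higher and 1 lower without the line as a term), with the feedback gene *Axin2* at −1.64 ± 0.33 (adjusted p = 0.156). Interferon response genes had 1 higher and 3 lower of 19 (0 and 1 without the line as a term), and their median of −0.56 was 0.03 in B73 and −0.64 in B87, so that it rests on B87. Of 20 cell-cycle inhibitors, G1 cyclins and Myc genes, 0 were higher and 2 lower (0 and 1 without the line as a term), and of 14 BCL2 family genes, 1 was higher and 0 lower (0 of each without it).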

How the data were processed

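RNA was measured in 8 libraries, grouped by the line, Dox state and treatment named in each sample title. Stranded libraries of poly(A) RNA were read single-end over 75 bases. The authors trimmed the reads with Trimmomatic 0.36, aligned them to GRCm38 (mm10) with STAR 2.5.3a and deposited raw counts per Ensembl gene made with featureCounts 1.6.3. Settings for strand and for reads that match several genes are not given in the sources used here, so shares of 75-base stretches common to other genes were computed from GENCODE M21.

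The counts were fitted with edgeR 4.0.16 in R 4.3.3 (TMM normalization, filterByExpr, quasi-likelihood F-test, 4 groups and cell line as terms), and the interaction contrast was adjusted over 14301 genes by the Benjamini-Hochberg method. A gene was called at an adjusted p under 0.05 and over 2-fold, the thresholds of the study. SE is the log2 value divided by the square root of F. Values per line are differences of log2 CPM (prior count 2). CPM are counts scaled by TMM to a common library total, and floors of 3 counts cover counting error only, since reads carried no molecular identifiers. The study used DESeq2 and names no covariate. The line was kept because each line passed through all 4 conditions, and the pairing comes from the line in the titles: for each of 6 pairs of groups, the deviations of a line's libraries from the group means had r between 0.642 and 0.774 across genes.

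Text names *Smad4*, every called gene and up to 4 members of each list, those with the smallest interaction p. Lists and rules were chosen with earlier results of these data known, and some genes, 1 of them in the fibrogenic program, and some alleles are not reported here. Where 108 symbols were carried by several genes, the gene with most counts kept the symbol. Alternatives were other models, tools, scalings and filters, and leaving out each library. Scripts were tested on simulated counts.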

Additional observations from a re-analysis of the deposited data

Results flagged for a closer look

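A test of the difference itself, the edgeR interaction at an adjusted p under 0.05, found that the *Smad4* effect differed between TGFβ1 and SB505124 for 28 genes. The interaction was positive for *Atp6v1g1* (1.26), *Vegfa* (1.38), *Fermt2* (1.01), *Adgrg1* (1.90), *Nabp1* (1.50), *Ctgf* (1.75), *Itga5* (1.54) and *Ndrg1* (1.13), on the log2 scale. Among genes of detoxification and selenium transport it was negative for *Gsta4* (−2.80), *Aldh3a1* (−2.69), *Selenop* (−1.44), *Gclc* (−1.29), *Aldh1a1* (−1.13) and *Nfe2l2* (−0.999), the last just under the 2-fold rule. It was also negative for the secreted or surface proteins *Il33* (−3.17), *Plat* (−1.98), *Tspan8* (−2.43) and *Apcdd1* (−1.17), for *Mgat3* (−3.02), and for the epithelial genes *Rbm47* (−1.45), *Scel* (−2.20), *Wnk4* (−2.09) and *Sprr1a* (−1.27). The other negative values were those of *Pik3r5* (−1.95), *Ddc* (−4.97, from B73), *Fam129a* (−1.19), *Myl12b* (−1.06) and *Rab3b* (−1.96). Both lines had the same sign for all 28, although *Ddc* was not measurable in B87. None of the 28 passed an adjusted p of 0.05 without the cell line as a term.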

How the results depend on the processing

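The number of called genes depended strongly on the model. The 27 calls (8 higher, 19 lower) became 0 without the replicate block, that is, without the cell line (0 higher, 0 lower), and 440 (99 higher, 341 lower) when line-by-*Smad4* and line-by-treatment terms were added to the block. The model with these added terms has almost as many terms as libraries and leaves hardly any residual, so its count is not comparable with the others. DESeq2 called 134 genes with the replicate block (37 higher, 97 lower) and 40 without it (16 higher, 24 lower), and edgeR without a filter on low counts called 284 (61 higher, 223 lower). DESeq2 size factors gave 24 calls, a minimum of 10 counts in every library 27, of which 26 were shared, and no fold rule 28. Leaving out 1 library at a time, which leaves its group with a lone sample taken to vary like the others, gave 0 to 14 calls, 0 to 6 higher and 0 to 10 lower, of which at most 10 were among the 27. In each of these settings every one of the 27 that was tested kept its sign. The settings reuse the libraries from which the 27 were chosen, so a kept sign is no separate support for them. *Itgb7*, not called, ran from −2.47 (without the Smad4-on SB505124 library of B73) to 0.19 (without the Smad4-on TGFβ1 library of B73). With genes of mean log2 CPM of at least 3, the lines were more alike: r = 0.689, rho = 0.579, 69.2% of the same sign, 92% of the 100 highest genes of B73 positive in B87 and 98% of those of B87 positive in B73, where all genes at that level were positive in 49.6% and 53.3% and negative in 50.4% and 46.7%. Prior counts of 0.5 and 5 left these measures within their spread. The causes of these changes were not tested. The counts of list members without the line stand beside each list. Depth limits *Ddc* in B87 and other genes near 3 counts, for which a difference between treatments was not measurable. It also limits the *Smad4* effect on *Il11* under SB505124 (0.92 ± 0.89), where its libraries held 8 to 19 counts.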

Other observations

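Short of the call, the 9 genes that follow had an interaction with an adjusted p between 0.05 and 0.1 (edgeR), and they are named here after their values were seen. On the higher side were *Apbb2* (1.07), an adaptor of the amyloid precursor protein, *Denr* (1.05), a factor of translation reinitiation, and *Cited2* (0.98), a CBP/p300-binding regulator. *Cited2* fell with *Smad4* under SB505124 (−0.65, adjusted p = 0.0256) and had an effect of 0.33 under TGFβ1 (adjusted p = 0.0832). On the lower side were *Ifi203* (−3.29), an interferon-inducible gene, *Mettl7a1* (−1.61), *Arhgap18* (−1.46), a RhoA regulator, *Smad6* (−1.43), *Suox* (−1.13), sulfite oxidase, and *Kitl* (−1.04). *Suox* resembled *Pik3r5*, with a rise of 1.33 under SB505124 (adjusted p = 0.00342) and 0.19 under TGFβ1 (adjusted p = 0.33). B73 and B87 shared the sign for these 9.

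The promoter windows were also searched for motifs of NRF2 (TGACNNNGC) and HIF (ACGTG), chosen after the called genes were known. The NRF2 motif was in 2 of 7 windows of higher genes and 3 of 19 of lower genes, and in 12.4% of all windows. The HIF motif was in 2 of 7 and 1 of 19, and in 19.6% of all windows. *Gsta4*, *Aldh3a1* and *Gclc* had no window in the table.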
